A study of Nothobranchius furzeri with 12 samples.

Results

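The 25 genes described here are the named genes whose RNA was lowest in the retina of the oldest fish. They were chosen by their own measured values: of the 25122 entries in the count table, 10533 carry a gene name, 8191 of those averaged at least 5 CPM (a gene's count divided by the library's total count, times 1000000) over the 12 libraries, and 27 of the 8191 had all 3 values at 6.0 months below all 9 values of the younger fish, with a 6.0 month mean of at most 0.77 times the mean of the 9. The short-wavelength opsin gene opn1sw and the disc rim gene rom1 met these limits and were set aside by name, with all genes whose names begin nduf or atp5, which leaves 25. Because the values at 6.0 months chose the genes, every statement below on 6.0 months against the younger fish is a description with no test. The tests concern 1.5, 3.0 and 4.5 months alone, whose order the choice did not use.

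The tissue was retina with its retinal pigment epithelium (RPE) attached, from 12 untreated male turquoise killifish (Nothobranchius furzeri), 3 fish in each of 4 age groups, the oldest aged 6.0 months and the younger ones 4.5, 3.0 and 1.5 months. Every group has the same genotype label, GRZ backcross mutant line, GRZ being an inbred strain of this species with a very short life. The labels say neither which gene is mutated in that line nor which fish carry the mutation, so it cannot be told whether carriers were spread evenly over the ages. Replicates 2 and 3 at 4.5 months have library names beginning Resub, a word the labels do not explain.

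A vertebrate rod or cone detects light with an opsin that switches on transducin, a G protein of 3 subunits. Transducin releases a phosphodiesterase from its inhibitory subunit, the phosphodiesterase breaks down cyclic GMP, and channels held open by cyclic GMP close. Calcium then drops in the outer segment, and guanylate cyclase with its calcium-sensing activator proteins makes new cyclic GMP. Outer segment discs are rich in polyunsaturated phospholipids and are renewed throughout life, the old tips being eaten by the RPE.

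Libraries held 34437141 to 50268318 counts, and every member had at least 362 counts in each library. Retinal and RPE genes were present in all libraries: the photoreceptor transcription factor gene crx stood at 524 to 786 CPM and the RPE and visual cycle list summed to 16721 to 38053 CPM. Cornea and fibroblast markers were highest in 1.5 months replicate 1. Lens genes summed to 24488 CPM in 6.0 months replicate 1, 2443 CPM in 4.5 months replicate 1 and 1072 CPM in 1.5 months replicate 2, and to 19.3 to 85.1 CPM in the other 9 libraries. Cytosolic ribosomal protein genes summed to 19905 to 28724 CPM in both Resub libraries, 6.0 months replicate 2 and 3.0 months replicate 2, and to 38650 to 55555 CPM in the other 8.

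The 25 genes included 4 of the light response, genes of the photoreceptor's matrix, synapse and membrane lipids, a growth factor, a neuropeptide and several genes of general cell work. Their 6.0 month mean was 0.407 (paqr4) to 0.769 (timm21) of the mean of the younger fish, with a median of 0.636, while the 8191 named genes of at least 5 CPM had a median of 1.05. The choice took 0.330% of those genes before the names were set aside. By the same limits, 2.55% of the 8191 were lowest at 4.5 months, 0.159% at 3.0 months and 3.96% at 1.5 months. Of the 25 genes, 18 were lowest in 6.0 months replicate 1, 6 in replicate 2 and 1 in replicate 3. The library with the most lens RNA is thus also the lowest for most of these genes. Without that library 24 of the 25 still met the limits, b3galt6 being the exception, and without the 3 libraries that carried lens RNA the same 24 did. Leaving libraries out cannot make groups that are apart overlap, so a member could be lost only through its ratio. These counts are therefore no test of the part of lens RNA. In whole tissue, fewer cells of a type and less RNA per cell cannot be told apart.

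**Figure D1:**
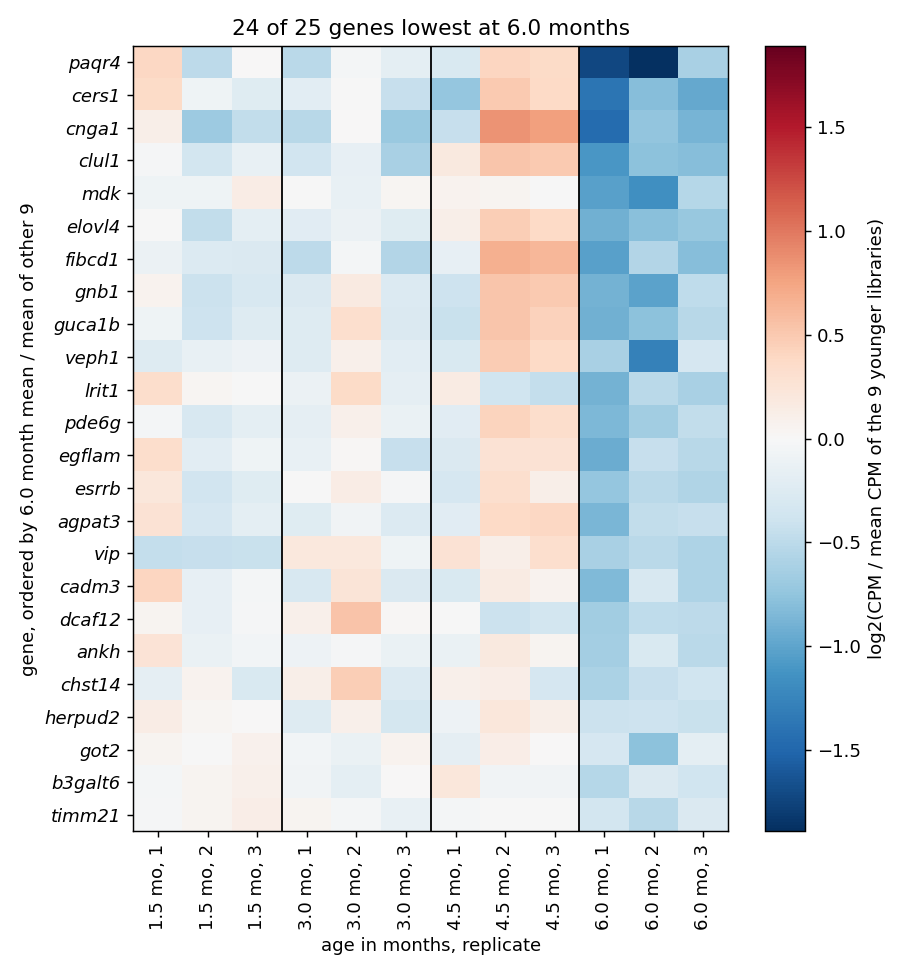
Level of 24 of the 25 genes (rows, ordered by the ratio of the 6.0 month mean to the mean of the 9 younger libraries) in each of the 12 libraries (columns, by age in months and replicate), as the log2 ratio of its CPM to the mean of the 9 younger libraries. The 3 columns at 6.0 months are the lowest of each row, as the choice of genes requires, and replicates 2 and 3 at 4.5 months are the highest in many photoreceptor rows.

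Among the genes of the light response, gnb1, pde6g, cnga1 and guca1b were members. The gene gnb1 encodes a G protein beta subunit, the form found in rod transducin of mammals. It stood at 3610.4, 2601 and 2806 CPM at 1.5 months, 2862, 3901 and 2892 at 3.0 months, 2642, 4997 and 4865 at 4.5 months and 1868, 1716 and 2488 at 6.0 months. The highest 6.0 month fish lay just under the lowest younger fish (2488 CPM against 2601 CPM), and the means were 2024 ± 409 CPM at 6.0 months (SD, n = 3) against 3464 ± 939.9 in the other fish (SD, n = 9), a ratio of 0.584. The gene pde6g encodes the inhibitory subunit of rod phosphodiesterase. It stood at 1239, 1035 and 1129 CPM at 1.5 months, 1132, 1359 and 1175 at 3.0 months, 1098, 1716 and 1610.5 at 4.5 months and 705, 808 and 923 at 6.0 months, with a ratio of 0.636. The highest old fish and the lowest younger fish were 923 CPM against 1035 CPM, a gap that the choice of genes required.

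The gene cnga1 encodes the pore subunit of the rod channel gated by cyclic GMP. Its values were 134, 77.4 and 90.1 CPM at 1.5 months, 86.2, 125 and 76.4 at 3.0 months, 91.8, 223 and 213 at 4.5 months and 45.3, 73.9 and 67.3 at 6.0 months. Both Resub libraries at 4.5 months were far above all others, and the gap between old and younger fish was narrow (73.9 CPM against 76.4 CPM). Its ratio was 0.501, with the widest spread among the younger fish of all 25 genes (coefficient of variation 45.9%). The gene guca1b, for a calcium-sensing activator of guanylate cyclase, had 415, 333 and 369 CPM at 1.5 months, 370.2, 548 and 360.3 at 3.0 months, 327, 627 and 589.9 at 4.5 months and 232, 256 and 303 at 6.0 months. Its highest old fish and lowest younger fish were 303 CPM against 327 CPM, and the ratio was 0.602.

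**Figure D2:**
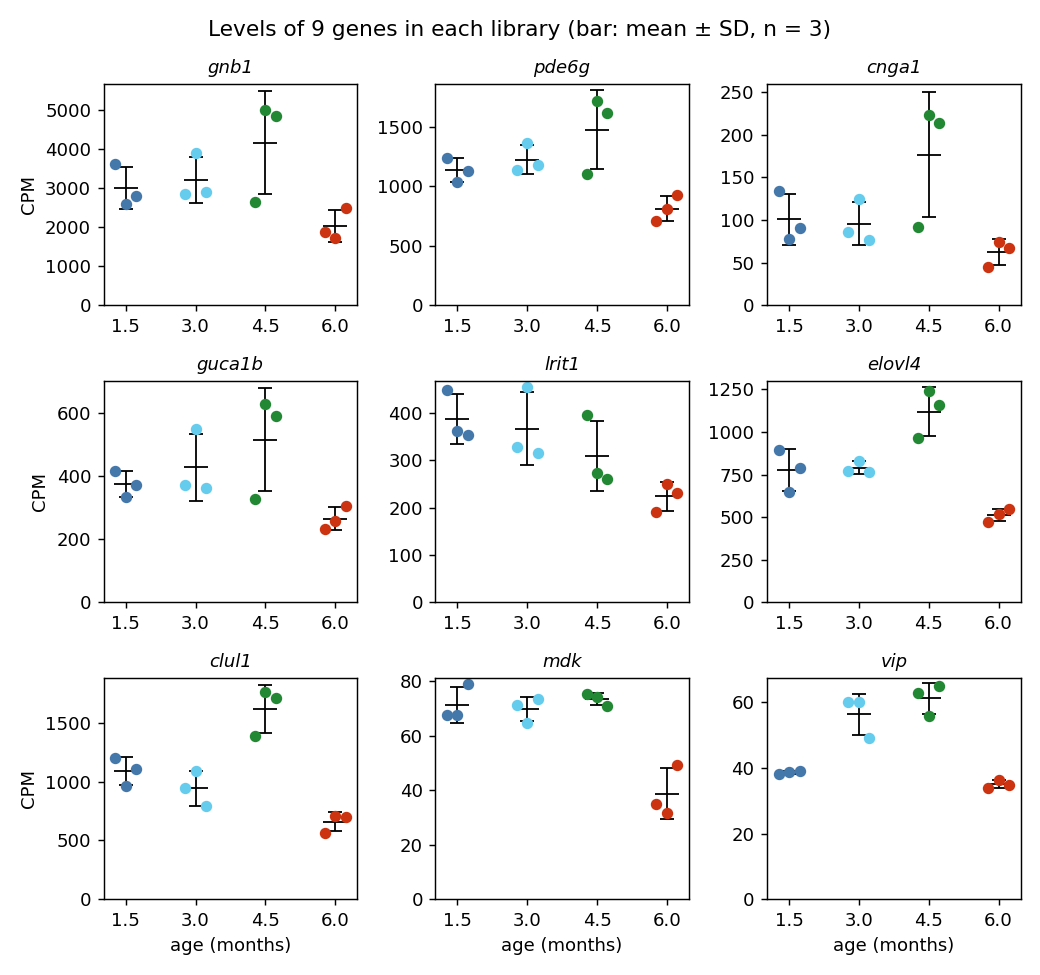
CPM (y axis, from 0) by age in months (x axis) of 9 of the genes, each point a fish and each bar the mean ± SD of 3 fish. In every panel the 3 fish of 6.0 months lie under all younger fish, for elovl4 at 474 to 546 CPM against at least 648 CPM; vip is also low at 1.5 months, at 38.0 to 39.0 CPM.

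Most other genes of the light response also had a lower mean at 6.0 months, but in most of them old and younger fish overlapped. After entries named by a locus number were given the symbols that RefSeq holds for the same gene number, the rod and cone phototransduction list had 52 entries of at least 5 CPM. Of these 52, 27 had a ratio of at most 0.77, and the median ratio of the 52 was 0.743. Of all 14154 entries of at least 5 CPM, 3.58% had such a ratio and the median was 1.06; the choice of members used the same values, so nothing is read from this difference. In 9 of the 27 the old fish did not overlap the younger ones: the 4 members, opn1sw, and 4 locus entries with the symbols gnat1 (0.525), pdca (0.633), rgs9bp (0.671) and gnat2 (0.718). Of all 14154 entries of at least 5 CPM, 61 (0.431%) met both limits. Another entry of the list, itself named rgs9bp, had a ratio of 0.796 with overlapping groups (highest old fish 162 CPM, lowest younger fish 122 CPM). The entries of gnat1 and gnat2, which are the transducin alpha subunits of rods and cones, averaged 1894 ± 572 and 2182 ± 108 CPM at 6.0 months (SD, n = 3) and 3607 ± 749 and 3039 ± 697 CPM in the others (SD, n = 9).

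The gene guca1a, for another cyclase activator, had a low mean without separate groups. Its ratio was 0.483, lower than those of the 4 members, yet 1 of the younger fish (254 CPM) lay under the highest old fish (436 CPM). The rod arrestin entry saga (0.614) and the rod transducin gamma entry gngt1 (0.601) likewise missed by 1 younger fish. At the other end, 8 of the 52 entries had a ratio above 1, among them grk1, an opsin kinase gene, at 1.17. The related entry grk1b went the other way, at 0.632 with overlapping groups. Also above 1 were gnb1l (1.06) and gucy2cb (1.11), which matched the list by spelling only.

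**Figure D3:**
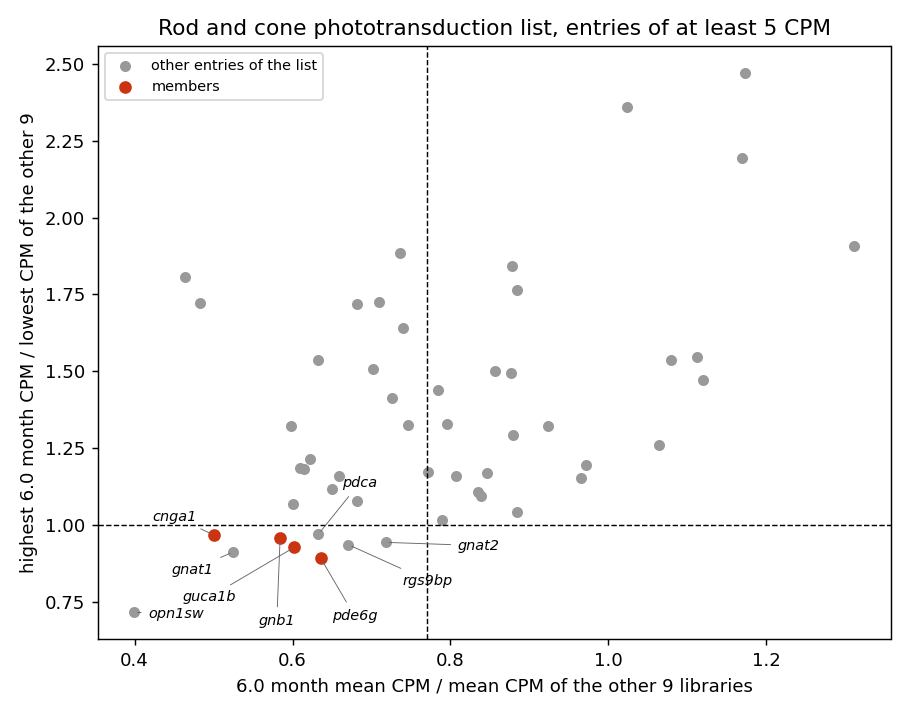
Each point is 1 of the 52 entries of the phototransduction list. The x axis is the 6.0 month mean CPM over the mean of the other 9 libraries, and the y axis the highest 6.0 month CPM over the lowest of the other 9, so that points under 1 have groups that do not overlap. The 4 members (red) and 5 other labelled entries lie under both dashed limits, and 18 more entries have a ratio of at most 0.77 with overlapping groups.

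Several members act at the photoreceptor's synapse or in cell adhesion. The gene egflam encodes pikachurin, a matrix protein of the cleft between photoreceptors and bipolar cells, and stood at 226, 157 and 171 CPM at 1.5 months, 164, 184 and 133 at 3.0 months, 149, 218 and 218 at 4.5 months and 94.3, 133 and 125 at 6.0 months. Old and younger fish met, both groups reaching 133 CPM after rounding. The gene lrit1 encodes a leucine-rich membrane protein found, in mouse, at photoreceptor synapses. Its values were 448, 363 and 353 CPM at 1.5 months, 327, 455 and 316 at 3.0 months, 395, 274 and 259.6 at 4.5 months and 190.4, 249.9 and 231 at 6.0 months, and it was the only one of the 25 whose mean was lower at each age than at the age before (388, 366, 309 and 224 CPM). The fish of the 3 younger ages overlapped, and no step between them passed the test below. At 4.5 months the lower mean came from the Resub libraries, with replicate 1 at 395 CPM. The step to 6.0 months was required by the choice of genes. The share of all genes falling at each age is not given here. The gene cadm3 encodes a cell adhesion protein of neurons. It stood at 932, 634 and 686 CPM at 1.5 months, 572, 836 and 584 at 3.0 months, 574, 780.1 and 736 at 4.5 months and 393, 568 and 469 at 6.0 months, a ratio of 0.677. Replicate 2 of the old fish lay just under the lowest younger fish.

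Another group of members acts on lipids. The gene elovl4 encodes the elongase that makes very long fatty acids for photoreceptor membranes, and its mutation causes a macular dystrophy in humans. It stood at 892, 648 and 787 CPM at 1.5 months, 772, 832 and 766 at 3.0 months, 962, 1239 and 1159 at 4.5 months and 474, 519 and 546 at 6.0 months. The old fish spanned only 474 to 546 CPM, and the younger ones 648 to 1239 CPM. The gene agpat3 encodes an acyltransferase that, in mouse retina, builds phospholipids with docosahexaenoic acid. Its values were 783, 522 and 569 CPM at 1.5 months, 555, 620.2 and 542 at 3.0 months, 559.8, 839 and 847 at 4.5 months and 356, 468 and 479 at 6.0 months, a ratio of 0.67. The gene cers1, for the ceramide synthase of neurons, stood at 267, 198 and 178 CPM at 1.5 months, 181, 207 and 153 at 3.0 months, 126, 295 and 269.6 at 4.5 months and 80.0, 119 and 107 at 6.0 months, a ratio of 0.488. Its lowest younger fish was 4.5 months replicate 1, far below the Resub libraries of that age. The gene paqr4, for a membrane protein of the progestin and adipoQ receptor family, had the lowest ratio of all. It stood at 108, 58.1 and 82.8 CPM at 1.5 months, 57.5, 79.9 and 72.3 at 3.0 months, 67.6, 109 and 106 at 4.5 months and 24.9, 22.1 and 53.5 at 6.0 months, so 6.0 months replicate 3 was far above the other old fish and close to the lowest younger fish (53.5 CPM against 57.5 CPM).

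The remaining photoreceptor and retinal genes differ in how even they were among the younger fish. The gene clul1 encodes a relative of the extracellular chaperone clusterin and stood at 1201, 961 and 1108 CPM at 1.5 months, 944, 1092 and 793 at 3.0 months, 1388, 1760.2 and 1712 at 4.5 months and 566, 711 and 698 at 6.0 months. Here the 3 fish of 4.5 months were the 3 highest of all and the 3 of 6.0 months the 3 lowest. The growth factor gene mdk, for midkine, had 67.6, 67.5 and 78.9 CPM at 1.5 months, 71.2, 64.8 and 73.4 at 3.0 months, 75.2, 74.4 and 71.0 at 4.5 months and 35.0, 31.8 and 49.3 at 6.0 months. Its younger fish lay close together (coefficient of variation 6.17%), and the old fish stood at 38.7 ± 9.28 CPM (SD, n = 3), a ratio of 0.541. The orphan nuclear receptor gene esrrb, needed for rod survival in mouse, stood at 161, 108 and 118 CPM at 1.5 months, 138, 152 and 137 at 3.0 months, 111, 173 and 151 at 4.5 months and 84.0, 97.6 and 94.0 at 6.0 months, a ratio of 0.662. Its old fish were all under the younger ones, of which 1.5 months replicate 2 was the lowest.

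The peptide gene vip, for vasoactive intestinal peptide of some amacrine cells, followed another course. It stood at 38.0, 38.6 and 39.0 CPM at 1.5 months, 59.9, 60.0 and 49.0 at 3.0 months, 62.8, 55.9 and 64.8 at 4.5 months and 33.9, 36.3 and 34.7 at 6.0 months. The youngest fish were thus nearly as low as the oldest (36.3 CPM against 38.0 CPM), and both were under every fish of 3.0 and 4.5 months. Its ratio of 0.673 therefore rests mainly on the fish of 3.0 and 4.5 months.

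The other 9 members had ratios of 0.58 to 0.769. The gene fibcd1, for an endocytic receptor that binds acetylated sugars, stood at 96.4, 87.7 and 86.8 CPM at 1.5 months, 74.2, 102 and 71.1 at 3.0 months, 93.8, 167 and 162 at 4.5 months and 51.0, 71.1 and 59.7 at 6.0 months. Old and younger fish met at 71.1 CPM after rounding, and the Resub libraries were again the highest. The gene veph1, for a protein with a pleckstrin homology domain, stood at 99.4, 107 and 110.4 CPM at 1.5 months, 98.9, 125 and 103 at 3.0 months, 96.3, 165 and 153 at 4.5 months and 76.4, 48.6 and 94.0 at 6.0 months. Among its old fish replicate 2 was by far the lowest and replicate 3 lay just under the younger fish. The gene ankh, for a membrane protein that exports pyrophosphate or its source ATP, stood at 120.5, 92.2 and 97.3 CPM at 1.5 months, 93.9, 99.2 and 92.9 at 3.0 months, 92.2, 115 and 105 at 4.5 months and 64.3, 82.3 and 70.9 at 6.0 months. Its ratio was 0.719, and its younger fish lay close together (coefficient of variation 10.4%).

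The gene dcaf12 encodes a substrate receptor of a ubiquitin ligase and stood at 147, 127 and 139 CPM at 1.5 months, 152, 205 and 144 at 3.0 months, 141, 106 and 111 at 4.5 months and 89.5, 101 and 101 at 6.0 months. As for lrit1, its Resub libraries were the lowest of the younger fish, and its ratio was 0.687. The gene herpud2, a homologue of an endoplasmic reticulum stress gene, stood at 154, 143 and 139.8 CPM at 1.5 months, 118, 149 and 111 at 3.0 months, 131, 162 and 151 at 4.5 months and 105, 106 and 104 at 6.0 months. Its 3 old fish were nearly equal, and its ratio was 0.753. The genes chst14 and b3galt6 encode enzymes that build proteoglycan chains, a sulfotransferase and a galactosyltransferase. The gene chst14 stood at 11.8, 14.0 and 10.9 CPM at 1.5 months, 14.4, 18.4 and 11.2 at 3.0 months, 14.3, 14.6 and 10.7 at 4.5 months and 8.80, 9.85 and 10.3 at 6.0 months. Its groups nearly met, the lowest younger fish being 4.5 months replicate 3. The gene b3galt6 stood at 52.5, 56.1 and 57.6 CPM at 1.5 months, 51.6, 47.6 and 54.1 at 3.0 months, 62.9, 51.8 and 51.3 at 4.5 months and 37.0, 44.7 and 41.5 at 6.0 months, with its highest value in 4.5 months replicate 1. The genes dcaf12, ankh and herpud2 were chosen for naming after their values were seen.

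Of the mitochondrial genes, got2 and timm21 were members. The gene got2 encodes the aspartate aminotransferase of mitochondria, part of the malate-aspartate shuttle, and stood at 418, 398 and 425 CPM at 1.5 months, 388, 367 and 420.4 at 3.0 months, 355, 436 and 402 at 4.5 months and 322, 235 and 353 at 6.0 months. Replicate 2 of the old fish was far below the other two, and replicate 3 nearly met the younger fish. The gene timm21, for a subunit of the inner membrane import machinery, stood at 20.7, 21.6 and 22.8 CPM at 1.5 months, 21.6, 20.5 and 19.0 at 3.0 months, 20.5, 20.9 and 20.9 at 4.5 months and 16.4, 14.6 and 17.3 at 6.0 months. Its younger fish had the smallest spread of all 25 genes (coefficient of variation 4.93%). The lists of mitochondrial import (34 entries of at least 5 CPM, median ratio 0.922), outer segment and cilium structure (51 entries, 0.928), bipolar cells and photoreceptor synapse (69 entries, 1.05) and amacrine and horizontal cells (26 entries, 1.05) held 1, 2, 1 and 1 members. The other 29 lists examined held none. Among them were photoreceptor transcription factors (33 entries, median ratio 1.06, 1 of them at most 0.77) and the TCA cycle and pyruvate entry (22 entries, median ratio 0.854, 4 of them at most 0.77). The lists were matched by symbol alone, and a place in one does not say where in the cell a product works. In the TCA list a locus entry with the symbol mdh1ab met the same limits, at a ratio of 0.441. Its highest old fish stood at 207 CPM and its lowest younger fish at 265 CPM. As an entry with a locus number it could not be a member. The lists of oligodendrocytes and of microglia, which also held no member, had median ratios far from 1, and no entry of either had all old fish below the younger ones. Oligodendrocyte and myelin genes had a median ratio of 0.603 (11 of 14 entries at most 0.77), and summed to 314 to 491 CPM in the old fish and 270.1 to 1181 CPM in the younger ones. Microglia and macrophage genes had a median ratio of 2.24 over 11 entries, and summed to 1397 to 3180.1 CPM in the old fish and 741 to 2365 CPM in the younger ones. The part of these cell types in the members' values was not tested.

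Among the younger fish each gene was tested by itself, and no test of a common course of the 25 was made. With the old fish left out, 0 of the 25 genes passed the test of any difference between 1.5, 3.0 and 4.5 months. The smallest adjusted p was 0.0707 (edgeR with Benjamini-Hochberg adjustment), and 0.231% of 20359 genes passed. An unadjusted p under 0.05 was found for 5 of the 25 genes and for 4020 of all 20359. With DESeq2 clul1, elovl4, fibcd1 and vip passed that test, among 2159 genes. The call also rests on 1 library: without 4.5 months replicate 1, clul1, cnga1, fibcd1, veph1 and vip passed it in edgeR, among 2039 genes. Without the 2 younger libraries with lens RNA, which are that one and 1.5 months replicate 2, cnga1 and fibcd1 passed, among 924 genes. In both of these fits the Resub libraries alone made up 4.5 months. Age and whatever Resub marks cannot be told apart there. With all 12 libraries in the fit clul1 and vip passed, among 313 genes. Between 3.0 and 1.5 months 0 of the 25 passed in edgeR (0.00% of all genes) and 0 with DESeq2, which called 444 genes. In edgeR 2 of the 25 and 2402 of all 20359 genes had an unadjusted p under 0.05. The median log2 change of the 25 was -0.18 beside 0.00 over all genes. Of the 25, 5 lay above and 20 below 0, beside 49.2% of all genes above 0. Between 4.5 and 3.0 months 0 of the 25 passed in edgeR (0.152% of all genes). There 6 of the 25 and 2884 of all 20359 genes had an unadjusted p under 0.05. The median was 0.29 beside 0.02, and 21 of the 25 lay above 0, beside 52.6% of all genes. DESeq2 called clul1, elovl4 and fibcd1 in that comparison, among 948 genes. Without 4.5 months replicate 1, edgeR called clul1, cnga1, fibcd1 and veph1 in it, among 864 genes, again with the Resub libraries alone at 4.5 months. Of the whole phototransduction list 0 entries passed the edgeR test in any comparison of younger ages.

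Between 4.5 and 1.5 months vip was the only member past the test in edgeR (1.77% of all genes passed, 0.585% upward). DESeq2 called clul1 and elovl4 beside vip there (adjusted p = 0.0233 and 0.0333), among 1974 genes. Without the 2 libraries with lens RNA, edgeR called fibcd1 and not vip, among 1470 genes. The level of vip rose by 0.62 ± 0.12 on the log2 scale (SE, edgeR adjusted p = 0.0368), and all 3 fish of 4.5 months were above all 3 of 1.5 months. The call ended in each of the 3 fits without 1 fish of 1.5 months, without 3.0 months replicate 1 or 3, without 4.5 months replicate 2 or 3, with the replicate number as a block, without the libraries with lens RNA and without the Resub libraries. Over all 16 alternatives its log2 change was 0.55 to 0.70 and its adjusted p 0.000348 to 0.234 (edgeR or DESeq2). The median log2 change of the 25 genes was 0.07 beside 0.03 over all genes. Of the 25, 15 lay above and 10 below 0, beside 53.6% of all genes above 0. Without 4.5 months replicate 1, cnga1, fibcd1 and veph1 passed beside vip, among 2959 genes, with the Resub libraries alone at 4.5 months. With the Resub libraries left out instead, 4.5 months was replicate 1 alone. The log2 change of fibcd1 was then 0.05, against 0.59 in the main fit. That of clul1 was 0.34 against 0.52, of elovl4 0.30 against 0.48 and of vip 0.70 against 0.62.

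**Figure D4:**
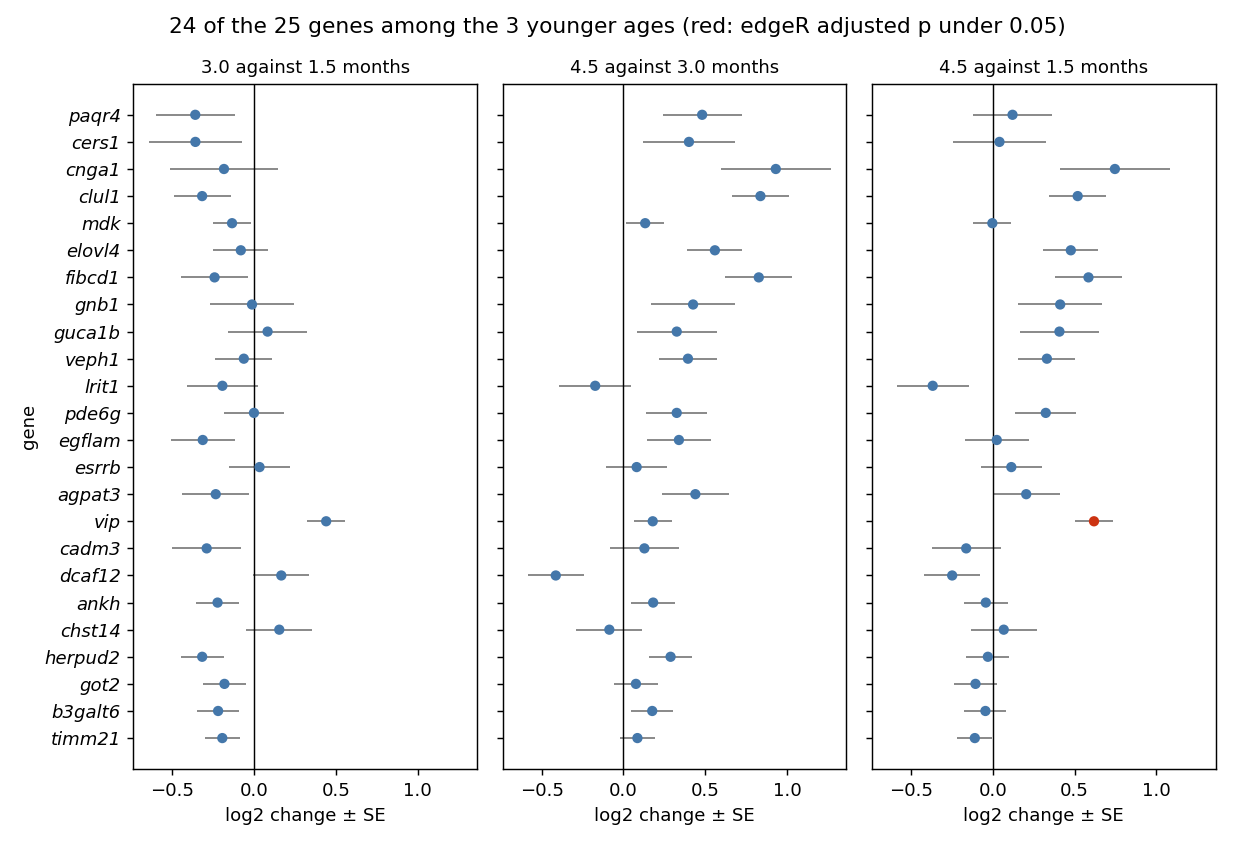
Log2 change ± SE (x axis, edgeR) of 24 of the 25 genes (rows) between the 3 younger ages, in the fit of 9 libraries. Only vip between 4.5 and 1.5 months, at 0.62, has an adjusted p under 0.05 (red). Between 4.5 and 3.0 months 21 of the 24 points lie above 0, beside 52.6% of all genes.

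At 4.5 months the Resub libraries and replicate 1 differed in the CPM of many members. The counts and ratios that follow have no share over all genes beside them, so nothing particular to the members is read from them. For 18 of the 25 genes replicates 2 and 3 were both above replicate 1, for 4 both were below it, and the median ratio of their mean to replicate 1 was 1.25. The largest such ratios were those of cnga1 (2.38) and cers1 (2.25), and gnb1 and guca1b had 1.87 and 1.86. For clul1 and elovl4 it was 1.25, and 4.5 months replicate 1 was itself above every fish of the other ages in both. For lrit1 the ratio was 0.675. Replicate 1 also carried lens RNA and more ribosomal protein RNA than replicates 2 and 3, as given above. The RPE list summed to 38053 CPM in replicate 1 against 20692 and 19243 CPM in the Resub libraries, and the Mueller glia list to 10857 CPM against 6539 and 6988 CPM. Both lists were also low in 3.0 months replicate 2, which is not marked Resub, at 16721 and 6507 CPM. The part of these differences in the result was not tested. The 25 genes together summed to 9950.4 CPM in replicate 1 and to 14987 and 14347 CPM in the Resub libraries. In the 3 old fish they summed to 6129.9, 6721 and 7741 CPM, and in the 6 fish of 1.5 and 3.0 months to 9149 to 12029.5 CPM. Highest of the latter were 1.5 months replicate 1, at 12029.5 CPM, and 3.0 months replicate 2, at 12013 CPM. With the Resub libraries left out, 24 of the 25 genes still met the limits, all but herpud2. Here too a member could be lost only through its ratio, so the part of the Resub libraries was not tested. For mdk, got2, b3galt6 and timm21 the 9 younger fish varied by less than 10% (coefficient of variation).

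Entries with related names did not all have the same pattern. The relatives of gnb1 and cnga1, called gnb1b and cnga1a, had ratios of 0.682 and 0.610 with overlapping groups. For elovl4, fibcd1, lrit1 and paqr4 the entries elovl4a, fibcd1b, lrit1a and paqr4a had ratios of 0.945, 0.995, 1.14 and 1.04. A locus entry that RefSeq also calls herpud2 had 0.949. How the authors' counting divided reads between such near copies is not given in the sources used here, so values of the pairs are uncertain where their sequences are alike.

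Entries that carry only a locus number in the table were outside the choice. Of 5963 such entries of at least 5 CPM, 34 met the same limits. RefSeq gives 25 of the 34 a symbol, among them the disc rim gene rom1a (0.468), the acyl-CoA synthetase gene acsl6 (0.578), the channel gene hcn3 (0.695) and the respiratory chain gene uqcrc1 (0.759). The entry with the highest mean CPM of the whole table (not divided by transcript length), LOC107391139, has no symbol in either source. It held 9564 to 14376 CPM in the old fish and 19324 to 30869 CPM in the younger ones, a ratio of 0.480.

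The limits fall within a continuous range of genes. Nearest inside the limit on the ratio were timm21 (0.769), b3galt6 (0.760) and got2 (0.756), and nearest outside were txndc12 (0.773), sdhaf4 (0.776) and adck2 (0.779). For the gap between groups, fibcd1, egflam and cadm3 were nearest inside, and lmbrd1, mdh2 and ppif missed it with a highest old fish 1.01, 1.01 and 1.03 times the lowest younger fish. Below 5 CPM only bmp2, at 1.15 CPM, met the other limits. Because the total count per library enters CPM, the scaling matters: with library sizes scaled by the trimmed mean of M-values (TMM) the median ratio of the named genes moved from 1.05 to 0.970, a log2 shift of -0.12, and 95 named genes met the limits. All 25 genes were among these 95, with ratios of 0.376 to 0.710. The number also changed with the old fish left out: 95 named genes met the limits without 6.0 months replicate 2, with got2 and timm21 lost, and 81 without replicate 3, with none of the 25 lost. Without replicate 1 it was 29. With 1 old fish fewer the groups are more easily apart, so a rise is in part built into the limit.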

How the data were processed

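RNA of retina with attached RPE was read from 12 male killifish as Nextera XT libraries on a NovaSeq S4 lane, per the labels' protocols. The authors deposited whole-number counts per gene with no normalization; aligner, counting program, annotation and build are not given in the sources used here. Among counts of 1 to 20, 73.2% were even, so counts may not all be separate fragments, and counting error may be larger than the totals imply. A byte-identical second table and a normalized table were not used. No library was a copy of another (lowest chi-square per gene 14.5, between both Resub libraries).

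CPM (counts scaled to a library total of 1000000) was computed here from the deposited counts over column sums, and the 25 genes were chosen on it. The members and gene lists were chosen with earlier results of these data known. Locus entries took symbols from RefSeq (NfurGRZ-RIMD1), 5257 of 14589; no coordinates or sequences are given. Some genes that matched the phototransduction list by spelling only were dropped after the matches were seen. Others, such as gnb1l and gucy2cb, remained in it. Of the 25 genes, 1 is counted but not reported here. Members were named by a rule: the 15 with the lowest ratio, the 10 with the highest mean CPM, any past the test, and the 3 nearest to each limit, inside and outside; dcaf12, ankh, herpud2 and the related entries that are no members were named after their values were seen.

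Libraries of 1.5, 3.0 and 4.5 months were fitted by age in edgeR 4.0.16 (R 4.3.3; filterByExpr, 20359 genes; TMM; robust quasi-likelihood F-tests; common biological coefficient of variation 0.293, 6 residual degrees of freedom), with Benjamini-Hochberg adjustment over all genes and a threshold of 0.05. The choice of genes used the lowest value and the mean of the 9 younger fish. It thus depends on their spread, which these tests do not correct for. Groups of 3 against 3 reach no exact permutation p under 0.1. Whether a replicate number marks a shared litter or day is not stated. The p-values measure the spread between these libraries, which holds differences in lens, cornea and fibroblast RNA and in the Resub mark beside those between fish. Alternatives were DESeq2 1.42.0, other scaling, filters, a replicate block and libraries left out.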

Additional observations from a re-analysis of the deposited data

How the results depend on the processing

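With the limits set otherwise, 25 genes became 95 on TMM-scaled library sizes, 98 with DESeq2 size factors, 49 with no limit on the ratio and 44 without the 3 libraries with lens RNA. It stayed within 1.5 times (19 to 37) with a ratio of at most 0.7, a mean of at least 1 or 20 CPM, and without the Resub libraries. Leaving out 1 library gave 25 to 95 genes, 95 without 6.0 months replicate 2 and 81 without 6.0 months replicate 3. In all 12 such sets 22 of the 25 genes met the limits, timm21, b3galt6 and got2 being lost in 4, 2 and 1. With fewer libraries the groups are more easily apart. More genes can thus meet that limit, and a member can be lost only through its ratio.

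Counts of genes past the test among the younger ages depended strongly on the setting. In edgeR 47 genes differed among 1.5, 3.0 and 4.5 months, 0 between 3.0 and 1.5 (2402 with an unadjusted p under 0.05), 31 between 4.5 and 3.0 and 360 between 4.5 and 1.5 months. DESeq2 gave 2159, 444, 948 and 1974 in that order. With all 12 libraries in the fit the counts were 313, 4, 66 and 627, without the 2 of the 9 libraries with lens RNA 924, 0, 685 and 1470, and without the Resub libraries, an alternative added after seeing the data, 51, 0, 52 and 35. Leaving out 1 library gave 0 to 2039, 0 to 166, 0 to 864 and 0 to 2959, the highest of each without 4.5 months replicate 1. In that fit the Resub libraries alone made up 4.5 months, and 5, 0, 4 and 4 of the 25 genes passed. With the replicate number as a block the counts were 4, 0, 1 and 42, and 0 of the 25 genes passed. The main fit had no such block because the labels do not say what the replicate number marks. Deviations of fish of equal number had correlations of -0.318 to 0.223, over 0.1 in 4 of 9 pairs. Closest to their own number were 4 of 9 libraries. The cause of the differences between settings was not tested. Members had at least 362 counts in each library, and each age had 3 fish.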

Other observations

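On TMM-scaled library sizes 95 of 8134 named genes of at least 5 CPM met the limits (1.17%, with the genes set aside by name left out), the 25 described above and 70 others. By list, members included, they were 4 of 21 named genes of phototransduction, all of them members, 4 of 18 of the TCA cycle and pyruvate entry, none of them members, 3 of 34 of outer segment and cilium structure, 3 of 37 of bipolar cells and photoreceptor synapse and 2 of 9 of respiratory chain complexes II to IV. The lists of cytosolic ribosomal proteins (75 genes), proteasome (41), splicing factors (63) and RPE genes (16) had 0. These genes were chosen by their values at 6.0 months and no test was made.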
